A study of Bos taurus with 8 samples.

Results

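miR-28 and miR-151 are related microRNAs (miRNAs), and 3 of the 704 miRNA names in the count table belong to them by name: bta-miR-28, bta-miR-151-5p and bta-miR-151-3p, where bta stands for Bos taurus. The names were taken by exact match, and all 3 were abundant enough to be tested. Small RNA was sequenced from paired plasma and blood cells of 4 untreated, non-pregnant Holstein-Friesian cross heifers (cows 44 to 47), aged 20 to 25 months by the study's methods and sampled in a normal oestrous cycle, which gave 8 libraries. Plasma RNA came from 0.7 mL of centrifuged and filtered plasma. Blood cell RNA came from 250 μL of a resuspended pellet that held red blood cells and buffy coat together, so fewer cells of a type and less RNA per cell cannot be told apart. The same volume of RNA extract went into each library, whatever its RNA content.

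A miRNA hairpin is cut by Dicer into a duplex of a 5p and a 3p strand, named after the arm of the hairpin they come from. Either strand can be loaded into an Argonaute protein, where its seed, near the 5′ end, sets which messenger RNAs it pairs with, so the arms of a hairpin have different targets. In mammals, the miR-28 and miR-151 hairpins derive from LINE-2 retrotransposons, old repeats whose inverted copies fold into hairpins, and the 5p strands of both resemble each other over most of their length. miR-28-5p is known in germinal centre B cells as a brake on proliferation, and miR-151-5p is known in human liver cancer cells to promote cell migration.

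In the authors' table, on the bovine build bosTau4, bta-miR-28 is listed at chr1:80395850-80395871 on the minus strand. bta-miR-151-5p is at chr14:2275092-2275112 and bta-miR-151-3p at chr14:2275128-2275148, both on the plus strand with 15 bases between them. In the RefSeq annotation of assembly ARS-UCD2.0, whose coordinates are not used here, the MIR28 gene lies within LPP and the MIR151 gene within PTK2. Both surrounding genes encode proteins of focal adhesions, and PTK2 is the focal adhesion kinase. The table used here does not say whether a read lies in an exon or an intron of these genes.

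The plasma libraries held 1453384 to 4296460 miRNA reads and the blood cell libraries 11169204 to 14471979. No member had fewer than 389 reads in any library, so counting error is small beside the differences between cows. Levels are given as RPMM, the reads of a name per 1000000 bovine miRNA reads of its library. The red blood cell miRNAs miR-451, miR-144 and miR-486 together took 488193 to 561169 RPMM in blood cells and 89165 to 180387 in plasma. The 5 leukocyte miRNAs of the marker list (miR-142-5p, miR-142-3p, miR-223, miR-150 and miR-155) took 25061 to 30989 RPMM in blood cells and 31864 to 68204 in plasma. Most of that sum was miR-142-5p, with means of 20925 and 39727 RPMM. miR-142-3p went the other way, with means of 2438 RPMM in blood cells and 1564 in plasma. In the edgeR test described below, with TMM scaling, none of the 5 was called higher in plasma, where 45.5% of all tested names were. With library totals, where 67.0% of all tested names were called higher, so were miR-142-5p, miR-223, miR-150 and miR-155. Their log2 fold changes were then 0.89, 1.25, 1.58 and 1.76, and miR-142-3p was not called, at -0.84. miR-122, miR-200a, miR-205 and miR-215, known from liver, epithelia and intestine, took 5.58 to 41.5 RPMM in blood cells and 15909 to 55635 in plasma. Most of that sum was miR-215, with means of 16.9 and 28947 RPMM. miR-126-5p and miR-126-3p, of endothelium and platelets, took 15.5 to 26.7 RPMM in blood cells and 5129 to 9762 in plasma. No miRNA of these 4 lists was at 0 in a fraction. The part of these differences in the results below was not tested.

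The members made up a similar small share of the miRNA reads of each fraction, but in different proportions. Their share was 0.779% ± 0.102 in a plasma library against 0.710% ± 0.0549 in a blood cell library (SD, n = 4). In plasma, miR-151-3p was the most abundant of them in 4 of 4 libraries, ahead of miR-151-5p and then miR-28. In blood cells, the arms of miR-151 lay close together and miR-28 lay far below them. The blood cells of cow 47 had the same order as plasma, with 3634 RPMM of miR-151-3p and 2852 of miR-151-5p.

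miR-151-5p was the only member with fewer RPMM in plasma than in blood cells. In blood cells it had 3649 RPMM in cow 44, 3730 in cow 45, 4085 in cow 46 and 2852 in cow 47. In plasma it had 1614 (cow 44), 1382 (cow 45), 1339 (cow 46) and 1160 RPMM (cow 47). The ranges of the fractions did not overlap, and cow 47 was the lowest cow in each. The mean was 3579 ± 521 RPMM for blood cells against 1374 ± 187 for plasma (SD, n = 4), 2.61 times as much in blood cells. Among the 704 names, it ranked 26 to 30 in blood cell libraries and 57 to 61 in plasma libraries.

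miR-151-3p, the opposite strand of the same hairpin, had more RPMM in plasma. Its levels in blood cells were 3384 (cow 44), 3101 (cow 45), 3693 (cow 46) and 3634 RPMM (cow 47). In plasma they were 6153 in cow 44, 7494 in cow 45, 5488 in cow 46 and 5616 RPMM in cow 47. Every plasma library was above every blood cell library, and cow 45 had both the highest plasma and the lowest blood cell level. The mean was 6188 ± 917 RPMM for plasma against 3453 ± 270 for blood cells (SD, n = 4), a ratio of 1.79. Its rank was 26 to 32 in a plasma library and 27 to 30 in a blood cell library.

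miR-28 was the least abundant member and also had more RPMM in plasma. Blood cells held 64.3 RPMM in cow 44, 70.4 in cow 45, 59.3 in cow 46 and 50.0 in cow 47, from 581 to 1019 reads. Plasma held 291 (cow 44), 251 (cow 45), 214 (cow 46) and 162 RPMM (cow 47), from 389 to 799 reads. The fractions did not overlap, and cow 47 was again the lowest in each. The mean was 230 ± 55.0 RPMM for plasma against 61.0 ± 8.59 for blood cells (SD, n = 4), a ratio of 3.76. It ranked 114 to 123 among the names of a plasma library and 108 to 116 among those of a blood cell library. Fractions whose RPMM do not overlap are the rule in these libraries, at 87.1% of the 209 tested names, with plasma the higher in 64.1% and blood cells the higher in 23.0%.

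**Figure D1:**
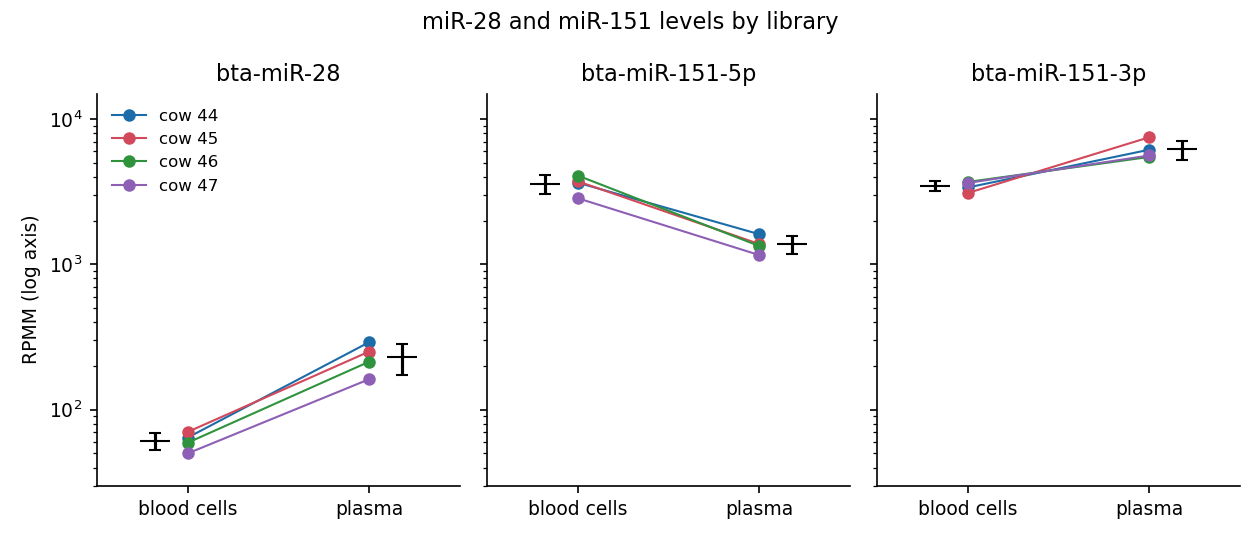
RPMM (log axis) of bta-miR-28, bta-miR-151-5p and bta-miR-151-3p in the blood cell and plasma library of each cow, joined by a line, with the mean and SD (n = 4) beside them as black bars. miR-151-5p went from 3579 RPMM in blood cells to 1374 in plasma on average, while miR-28 and miR-151-3p had more RPMM in plasma in 4 of 4 cows.

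The test of these differences has to place the libraries on a common scale, and for miR-28 and miR-151-3p the outcome turned on that scale. A name entered the test when 3 or more libraries of 1 fraction reached 25 RPMM, which 209 names did. The counts were fitted by edgeR's quasi-likelihood method with each cow as a block, and a name was called at a Benjamini-Hochberg adjusted p under 0.05. With TMM scaling, a trimmed mean method that offsets the reads taken by a few abundant miRNAs, 85.2% of the tested names were called, 45.5% higher and 39.7% lower in plasma. The median log2 fold change of all tested names was 0.08 with TMM and 1.76 when only library totals were used, a shift of the whole table. With library totals, 91.9% were called, 67.0% higher and 24.9% lower in plasma. Higher calls were thus 53.4% of all calls with TMM and 72.9% with library totals.

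miR-151-5p was called lower in plasma with either scaling. The log2 fold change, plasma relative to blood cells, was -3.05 ± 0.17 with TMM (± standard error, edgeR adjusted p = 7.90e-06). It was -1.38 ± 0.14 with library totals (edgeR adjusted p = 0.000136). It had fewer RPMM in plasma in 4 of 4 cows. With TMM its fold change stood at place 174 of 209 counted from the highest.

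miR-151-3p was called in opposite directions by the scalings. It was at -0.84 ± 0.17 on the log2 scale with TMM (± standard error, edgeR adjusted p = 0.00386) and at 0.83 ± 0.16 with library totals (edgeR adjusted p = 0.00278). The direction of miR-151-3p between plasma and blood cells therefore depends on the scale chosen. Read against the median of all tested names, it was at -0.92 with either scaling, since a shift of the whole table leaves that distance unchanged. With TMM the distance moved with the filter. It was -1.28 with no filter and -0.57 with names over 10 reads in at least 4 of 8 libraries.

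miR-28 was not called with TMM, at 0.22 ± 0.16 on the log2 scale (± standard error, edgeR adjusted p = 0.229). With library totals it was called higher in plasma, at 1.89 ± 0.16 (edgeR adjusted p = 5.32e-05). Against the median of all tested names it was at 0.13 with either scaling, close to the middle of the table at place 102 of 209. A shift of the whole table leaves this distance unchanged, but the filter moved it. With TMM it was -0.23 with no filter and 0.49 with names over 10 reads in at least 4 of 8 libraries. With TMM 2 of 3 members were called, both lower in plasma, where 85.2% of all tested names were called, 45.5% higher and 39.7% lower. With library totals 3 of 3 were called, 2 higher and 1 lower, where 91.9% were called, 67.0% higher and 24.9% lower. Counts of 3 names beside such shares do not set the members apart.

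**Figure D2:**
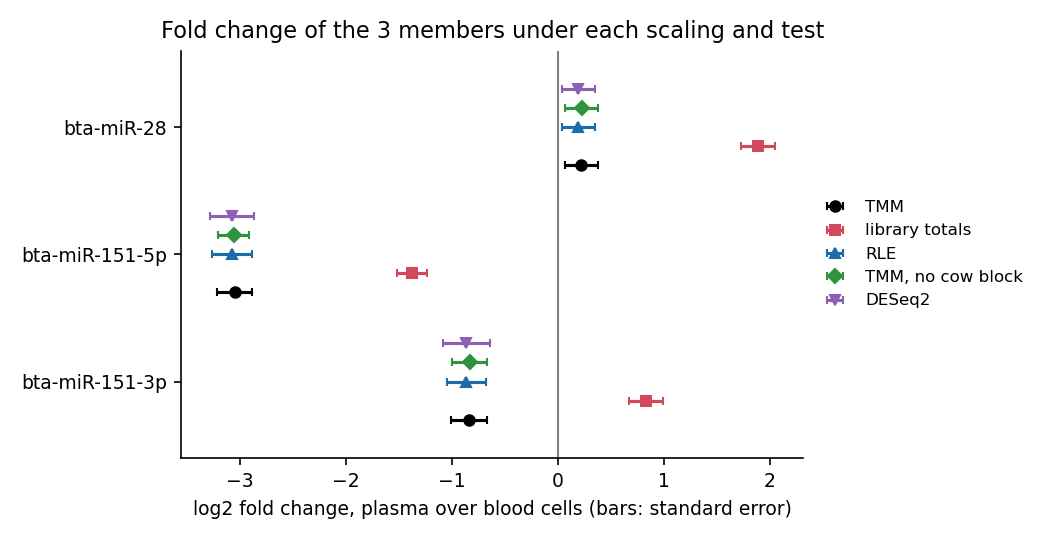
Log2 fold change, plasma relative to blood cells, of bta-miR-28, bta-miR-151-5p and bta-miR-151-3p, with standard errors as bars, under TMM, library totals, RLE size factors, TMM without the cow block, and DESeq2. miR-151-5p lies below 0 in all 5, while miR-151-3p moves from -0.84 with TMM to 0.83 with library totals.

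The arms of miR-151 can be compared inside each library, where no scaling between libraries is needed. In blood cells the arms had similar read counts. The 5p arm held 51.9% of the miR-151 reads in cow 44 (95% Wilson interval 51.5 to 52.2), 54.6% in cow 45 (54.3 to 54.9), 52.5% in cow 46 (52.2 to 52.8) and 44.0% in cow 47 (43.6 to 44.3). In plasma the 5p arm was the minor one, with 20.8% of the miR-151 reads in cow 44 (20.0 to 21.5), 15.6% in cow 45 (15.2 to 16.0), 19.6% in cow 46 (18.9 to 20.3) and 17.1% in cow 47 (16.7 to 17.6). The intervals cover counting error only, since PCR copies are not independent molecules. The blood cells of cow 47 were the only blood cell library with more 3p than 5p reads, and no plasma library came near any blood cell library.

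**Figure D3:**
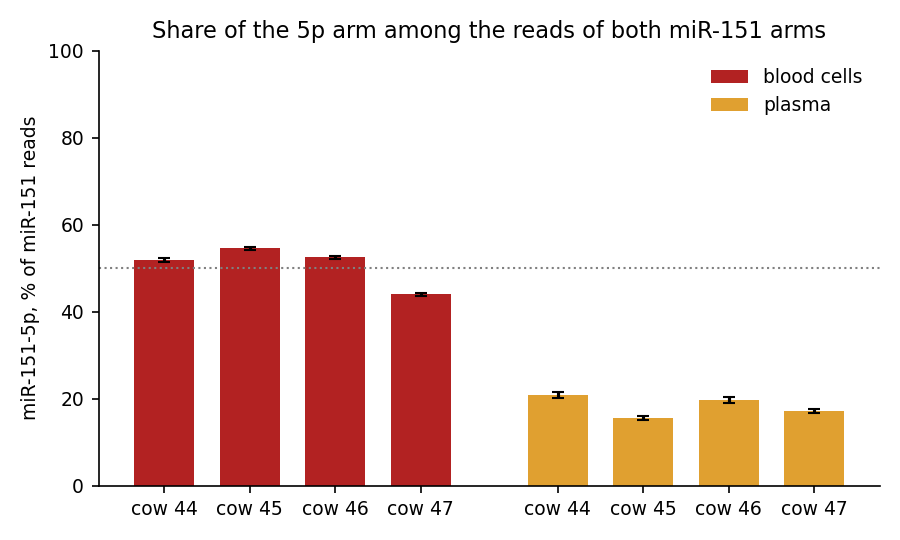
Percent of miR-151 reads that belong to the 5p arm in each library, by cow, with 95% Wilson intervals for counting error as bars and a dotted line where the arms are equal. The 4 blood cell libraries lie between 44.0% and 54.6% and the 4 plasma libraries between 15.6% and 20.8%.

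On average the 5p arm held 50.7% ± 4.66 of the miR-151 reads of a blood cell library and 18.3% ± 2.36 of those of a plasma library (SD, n = 4). As a ratio, there were 0.785 to 1.20 reads of 5p for each read of 3p in blood cells, with a geometric mean of 1.03, and 0.184 to 0.262 in plasma, with a geometric mean of 0.222. The ratio was lower in plasma in 4 of 4 cows, 4.64-fold on average, with a log2 difference of -2.21 ± 0.34 (SD of 4 paired differences, range -2.71 to -1.93). An exact two-sided permutation test of the 4 paired differences gave p = 0.125, the smallest value that 4 pairs allow (0.125 when adjusted over the 3 ratios among the members). A test of the arm ratio fitted over 15 hairpins at once, edgeR's quasi-likelihood method applied to the counts of both arms with a term for each library and for the arm in each cow, gave a log2 difference of -2.21 (standard error 0.26, adjusted p = 2.26e-10). That fit borrows its estimate of the spread from all 15 hairpins.

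The reads of both arms together differed little between the fractions in RPMM. Their sum was 7562 ± 987 RPMM in plasma (range 6776 to 8876) and 7032 ± 547 in blood cells (range 6486 to 7779; SD, n = 4). With the arms summed into 1 row, the log2 fold change was 0.10 with library totals (edgeR adjusted p = 0.516) and -1.53 with TMM (edgeR adjusted p = 0.000154). The arm ratio is the same with either scaling, whereas the summed level is called or not called with the scale.

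A different arm ratio in plasma was common among the hairpins that could be tested. Of 60 hairpins with a 5p and a 3p name, 15 had at least 10 reads of each arm in at least 3 of the 4 libraries of each fraction. The ratio of 5p to 3p was called different in 14 of the 15 (93.3%), lower in plasma in 9 (60.0%) and higher in 5 (33.3%), so the call for miR-151 does not set it apart. The difference of miR-151 was the 6th by size. The lowest were those of let-7a at -5.34, miR-6119 at -4.67 and miR-296 at -4.18 on the log2 scale, and the highest those of miR-331 at 2.56, miR-423 at 2.51 and miR-22 at 1.83. The arms of let-7a are listed on different chromosomes in the table, so its ratio can mix hairpins. In the other 14, miR-151 included, the arms are listed within 100 bases of each other. miR-151 was 1 of 4 hairpins whose mean arm ratio lay on opposite sides of 1 in the fractions, with miR-331, miR-423 and miR-1388, although in blood cells its ratio was close to 1 and cow 47 lay on the other side.

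**Figure D4:**
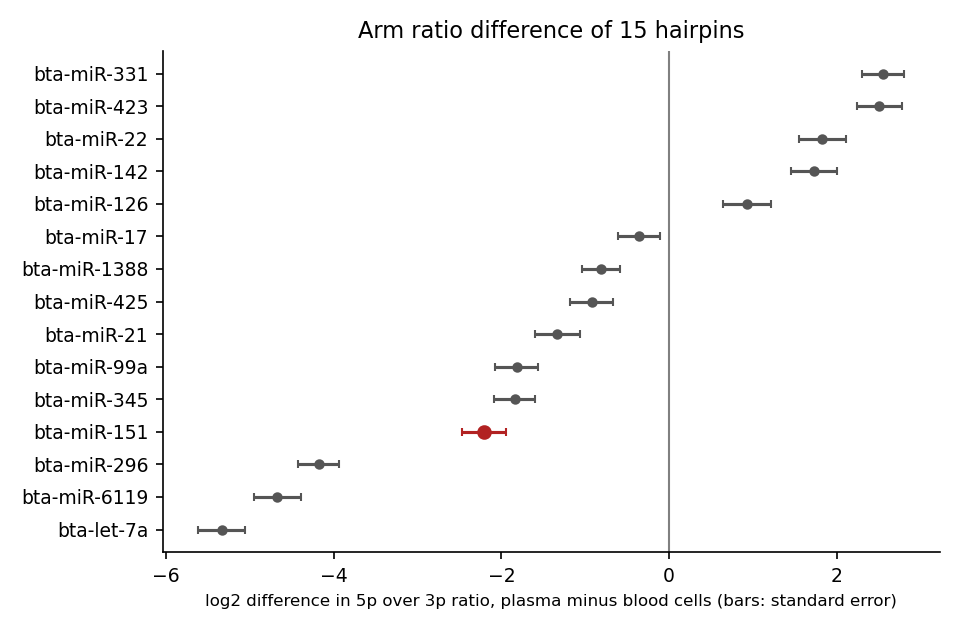
Log2 difference in the ratio of 5p to 3p reads, plasma minus blood cells, with standard errors as bars, for the 15 hairpins tested. miR-151 (red) is at -2.21, in a range from -5.34 for let-7a to 2.56 for miR-331.

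Ratios of miR-28 to the arms of miR-151 are also free of scaling between libraries. In blood cells there were 53.0 to 68.9 reads of miR-151-5p for each read of miR-28, and in plasma 5.50 to 7.16. The ratio of miR-28 to miR-151-5p was 9.64-fold higher in plasma, with a log2 difference of 3.27 ± 0.20 (SD of 4 paired differences, higher in 4 of 4 cows). For each read of miR-28 there were 44.1 to 72.6 reads of miR-151-3p in blood cells and 21.1 to 34.7 in plasma. The ratio of miR-28 to miR-151-3p was 2.08-fold higher in plasma, with a log2 difference of 1.06 ± 0.35 (higher in 4 of 4 cows). Each of these exact two-sided permutation tests gave p = 0.125, again the smallest that 4 pairs allow (0.125 adjusted over the 3 ratios). The members thus differed from each other in how they were divided between plasma and blood cells. With TMM, 45.5% of the tested names were called higher and 39.7% lower in plasma, so names that differ in this way were common. Among the members the difference was largest between miR-28 and miR-151-5p, whose 5p strands are alike in sequence. Single mismatches were allowed when reads were assigned, so some reads of these names could have been counted under the other, which was not tested.

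Libraries of the same fraction gave similar levels. The coefficient of variation over cows was 13.6% for miR-151-5p, 14.8% for miR-151-3p and 24.0% for miR-28 in plasma, and 14.5%, 7.83% and 14.1% in blood cells.

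Other names of the family were rare. bta-miR-708, which miRBase places in the same family, lies on chromosome 29 and its gene MIR708 within TENM4. It had 24, 83, 34 and 382 reads in the plasma of cows 44, 45, 46 and 47, that is 16.5, 26.1, 18.7 and 88.7 RPMM, and 0 to 2 reads in a blood cell library. It did not pass the filter. In a fit of all 704 names without the filter, which called 47.0% of them, 25.3% higher and 21.7% lower in plasma, it was called higher (edgeR adjusted p = 1.06e-07). Its pooled RPMM were 600-fold higher in plasma (523 reads against 4, 95% exact binomial interval 233 to 2209) and 206-fold higher without cow 47 (78.6 to 766), which held 382 of the 523 reads. These intervals, too, cover counting error only and not the spread between cows. Pooled RPMM rest on library totals, the scale with which more of the tested names were called higher in plasma. The fit without the filter used TMM, and its fold change for miR-708 was smaller than 600-fold. For the 3p arm of miR-28 there is a human homologue name, hsa-miR-28-3p, with 1 read in the 8 libraries, in the plasma of cow 45. The table lists it on chromosome 8, not beside bta-miR-28 on chromosome 1, so no arm ratio is given for miR-28.

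Other miRNAs annotated in human as derived from LINE-2 repeats were called in both directions. Of 6 such names in the table, 3 were tested. With TMM, miR-374a and miR-374b were called lower in plasma and miR-421 higher, against a background of 39.7% lower and 45.5% higher over the tested names. With library totals the background was 24.9% lower and 67.0% higher. All 3 are listed on the X chromosome, miR-374a from base 46871560, miR-374b from base 46943063 and miR-421 from base 46943257. They may therefore not be 3 separate cases. Calls of 3 names beside such shares do not set LINE-2 names apart. miR-374a averaged 79.6 ± 7.08 RPMM in the blood cell libraries against 42.8 ± 8.80 in those of plasma (SD, n = 4), with log2 fold changes of -2.58 with TMM and -0.91 with library totals, both called. miR-374b averaged 70.5 ± 13.1 RPMM in blood cells against 68.6 ± 17.5 in plasma, at -1.73 with TMM and not called with library totals, at -0.06. miR-421 averaged 1216 ± 420 RPMM in plasma against 239 ± 32.4 in blood cells, at 0.60 with TMM and 2.28 with library totals, both called. miR-95, miR-545-5p and miR-545-3p had at most 16.7 RPMM in any library and were not tested.

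The tested miRNAs nearest to a member over the 8 libraries were found by the distance between profiles of log2(RPMM + 1), each centred on its own mean. The difference between fractions enters this distance, so a direction in RPMM shared with the member is no separate result. For miR-151-5p the nearest were let-7d (distance 0.29), miR-93 (0.35) and miR-2285aa (0.43), each with more RPMM in blood cells. miR-93 belongs to the miR-17 seed family and averaged 9760 ± 1114 RPMM in the blood cell libraries (SD, n = 4), against 3411 ± 422 in plasma. For miR-151-3p the nearest were miR-2285k (0.45), miR-2285q (0.56) and miR-191 (0.58), with more RPMM in plasma. With TMM these 3 were lower in plasma, as miR-151-3p was, at -0.57, -0.98 and -0.95 on the log2 scale. TMM shifts the whole table, so this shared direction is no separate result either. For miR-28 the nearest were miR-221 (0.36), miR-2284z (0.54) and miR-532 (0.56). miR-221, known from endothelial and haematopoietic progenitor cells, averaged 3925 ± 874 RPMM in the plasma libraries (SD, n = 4), against 1093 ± 77.8 in blood cells.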

How the data were processed

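The authors removed reads without adapter, with undetermined bases or under 15 nucleotides, and ran sRNAbench 1.0 and Bowtie 0.12.9 on the rest against bosTau4 and miRBase 21, allowing 1 mismatch. They deposited raw read counts per mature miRNA and a normalised signal, RPMM, in which bovine names and human homologues (565 and 139 names) have separate denominators. Human homologues were put on the bovine scale here. Members, lists and the rule for named miRNAs were chosen with earlier results of these data, and the values printed by the study, known.

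Counts were tested with edgeR 4.0.16 (quasi-likelihood test, TMM, cow as block) in R 4.3.3, after the filter at 25 RPMM. Plasma and blood cells of 1 number came from the same animal. Deviations of same-cow libraries from the fraction mean correlated at 0.051 to 0.234 across tested names, against -0.174 to 0.106 for different cows. Named are the members, names of miR-28, miR-151 and miR-708, the 3 nearest profiles per member, the 3 lowest and 3 highest arm ratio differences among calls, and tested LINE-2 names. The markers and LINE-2 names came from lists set with the design. A floor of 3 reads was 0.696 to 2.07 RPMM in plasma and 0.207 to 0.268 in blood cells. DESeq2 1.42.0, limma 3.58.1, RLE, library totals, the likelihood ratio test, other filters, bovine names only, fits without the block and leaving out each cow were tried. The fits were tested on simulated data. RT-qPCR was not analysed here.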

Additional observations from a re-analysis of the deposited data

Results flagged for a closer look

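In 32 sets of 4 libraries of a fraction examined, 3 had a library whose gap to the nearest other took more of the whole range than Dixon's 95% critical value allows, where chance gives about 1 in 20. The plasma of cow 47 had 88.7 RPMM of miR-708, against 16.5 to 26.1 in the other plasma libraries. The blood cells of cow 44 had 90.0 RPMM of miR-374b, against 62.2 to 65.7 in the others. The plasma of cow 46 had 7.69 RPMM of miR-95, from 14 reads, against 0.688 to 1.39 in the others. None of these is a member, and no level or ratio of miR-28 or miR-151 stood apart in this way.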

How the results depend on the processing

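Of 84 recomputed values, 78 kept their direction and their side of the threshold, or stayed within the limits set for values with no test. Library totals turned miR-151-3p to 0.83 and the summed arms of miR-151 to 0.10 (an alternative added after seeing the data), and brought miR-28 past the threshold, at 1.89. Without a filter 331 of 704 names were called, against 178 of 209, and with at least 100 reads of each arm 9 of 10 hairpins, against 14 of 15, in each case because other numbers of names were tested. Hairpins with an unsuffixed name added none to the 15. Leaving out each cow gave log2 fold changes of -3.11 to -2.92 for miR-151-5p, -0.99 to -0.69 for miR-151-3p and 0.14 to 0.29 for miR-28, and 163 to 175 names called. The arm ratio difference of miR-151 was then -2.31 to -2.05, with 14 to 15 hairpins called. The pooled ratio of miR-708 was 206 to 1023 (also added after seeing the data). Without the replicate block, the values were -3.06, -0.84 and 0.22 for the members and -2.21 for the arm ratio, with 174 names called, and no call of a member changed. DESeq2 gave -3.08, -0.86 and 0.19. The ratio of miR-708 rests on 4 reads in blood cells. The 4 pairs limit the permutation tests, which cannot pass 0.05.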
